A study of Mus musculus with 8 samples.

Results

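Ileal epithelium was compared with colonic epithelium in mice whose intestinal epithelial cells (IECs) lack the RNA helicase DDX5, to ask how far the identity of each region is kept without it. Members were chosen by their labels, the 2 ileal and 2 colonic libraries of the knockout genotype, and they are 4 of the 8 libraries in the series. In the study, IECs were released with 5 mM EDTA from healthy littermates aged 8 weeks, and ribosome-depleted RNA was sequenced in stranded libraries. The knockout, DDX5ΔIEC, carries DDX5(fl/fl) with Vil1Cre(+), and its control, WTIEC, carries DDX5(+/+) with the same Vil1Cre(+). Villin1 is active in the epithelium of small intestine and colon, so Cre is driven in both regions of both genotypes. Each mouse gave 1 ileal and 1 colonic library, so each genotype was represented by 2 mice, called mouse 1 and mouse 2 below. The study's own model had a term for harvest, but which libraries shared a harvest or preparation is not stated. The mice are described as 2 pairs of cohoused knockout and control littermates, and the article text does not say which mice formed a pair. No term for harvest or pair was therefore fitted here. A difference of harvest between mice falls on both tissues, since each mouse gave 1 library of each. Tissue and any difference of harvest or preparation between the ileal and the colonic libraries cannot be told apart.

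The ileum and the colon share most classes of epithelial cells, but the work of each region differs. Ileal enterocytes take up bile acids, vitamin B12, sugars, peptides and lipids through a brush border rich in digestive enzymes, and Paneth cells at the base of ileal crypts secrete antimicrobial peptides. Colonocytes absorb salt, water and short-chain fatty acids, the colon makes more mucus and has no Paneth cells, and position along the gut is marked by Hox genes and the GATA factors.

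The 4 knockout libraries held 11768205 and 11571061 counts in the ileum of mice 1 and 2, and 16883951 and 19437275 in the colon. Levels below are in CPM, counts scaled to library size after TMM normalization, always with mouse 1 before mouse 2. In the ileum of mouse 2, 3 repeat-like genes took 19.5% of all counts, against 0.226% in mouse 1 and 0.00571% and 0.261% in the 2 colons. In WTIEC they took 4.04% and 3.93% in ileum and 0.0438% and 0.000956% in colon, so the ileum of knockout mouse 1 was the low one among ilea. Genes with any count beyond these 3 numbered 21702 and 30877 in knockout ileum, and 31956 and 26971 in WTIEC ileum. In colon they were 22804 and 23744 in the knockout, and 23625 and 23182 in WTIEC. Only these 3 genes were left out. The ileum of mouse 1 stood apart at 10 more predicted genes with names of the kind Gm10715 and Gm10717 to Gm10722, which lay under 1/8 of the lowest other ileal library. The colon of mouse 1 stood apart at 6 genes under 1/8 of the lowest other colon library, the Paneth and enterocyte lectins Reg3b and Reg3g, the bile acid exporter subunit Slc51a, the transcription factor Osr2, Pla2g4c and Prkg2. It was also over 8 times the highest other colon library at 1 gene, the clock gene Dbp, at 37.0 CPM against 2.92 in the colon of mouse 2. In that library 3 genes that resemble ribosomal RNA took 7.13% of counts and protein-coding genes 83.4%, against 3.30% and 88.2% in the colon of mouse 2. The ribosomal share was 5.50% and 5.27% in knockout ileum, against 3.10% and 2.86% in WTIEC ileum and 4.75% and 4.91% in WTIEC colon. The part of these differences in the results was not tested. For several genes at which the colon of mouse 1 lay far from the other knockout colon, the value without it is given below.

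Ddx5 itself (ENSMUSG00000020719.14, chr11:106780355-106789185, minus strand, GRCm38) had 357 and 336 CPM in knockout ileum and 381 and 366 in knockout colon, against 726 and 725 in ileum and 803 and 739 in colon of WTIEC. All 4 knockout libraries lay below all 4 controls, and counts are summed over all exons, so that deleted exons are not separated from the rest. Knockout ileum lay just below knockout colon, and the log2 fold change of Ddx5 was -0.11 (SE 0.12, adjusted p = 0.538 by the quasi-likelihood test of edgeR, Benjamini-Hochberg adjusted over all genes). Without the ileum of mouse 2 it was -0.06. Its paralog Ddx17 had 453 and 430 CPM in ileum and 379 and 389 in colon (adjusted p = 0.236).

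Epithelial markers were abundant in both regions of the knockout. Summed over 10 pan-epithelial genes, of which Krt8 was the most abundant, the level was 23897 and 18063 CPM in ileum and 16773 and 15196 in colon, and no member was at 0. The adherens junction cadherin Cdh1 had 1046 and 1221 CPM in ileum and 1060 and 1021 in colon (log2 fold change 0.12, adjusted p = 0.541). Among the 10 genes 3 were higher in ileum, the microvillus protein Vil1, Cdh17 and the surface keratin Krt20, none was higher in colon, and the median was 0.24. Among all genes tested 18.1% were higher in knockout ileum and 16.9% in knockout colon. Vil1, whose promoter drives Cre, had 2940 and 1961 CPM in ileum and 709 and 710 in colon, a log2 fold change of 1.79 (SE 0.21, adjusted p = 0.000309). Both ileal libraries lay above both colonic ones at Vil1, which was not so for Ddx5.

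Markers of other cells were low beside these but not absent. Summed over 12 T cell and intraepithelial lymphocyte markers, led by Ptprc, the level was 132 and 71.4 CPM in ileum and 10.01 and 25.1 in colon, with no member at 0 in both libraries of a region. Of 11 tested T cell markers 6 were higher in ileum and none in colon, with a median of 2.36, against 18.1% and 16.9% of all genes, and the count was 3 without the colon of mouse 1 and 1 without the ileum of mouse 1. Macrophage and dendritic cell markers, 9 genes led by Itgam, summed to 13.7 and 11.7 CPM in ileum and 2.35 and 2.97 in colon, with none at 0 throughout a region. In that list 4 of 6 tested members were higher in ileum, 1 without the colon of mouse 1 and 2 without the ileum of mouse 1, with a median of 2.35. In WTIEC 1 of 11 T cell markers was ileal, with a median of 0.26, and 2 of 6 macrophage markers, with a median of 1.06, against 16.9% ileal of all genes, and none of these genes passed the interaction described below. Both sums were higher in both knockout ilea, and their part in the regional differences below was not tested.

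Other groups of markers were low as well. The 8 B cell and plasma cell markers, led by Igha, summed to 8.66 and 8.92 CPM in ileum and 2.86 and 9.65 in colon, where Cd79a was at 0. The 10 fibroblast and smooth muscle markers, led by Col3a1, gave 5.91 and 4.08 CPM in ileum and 11.7 and 3.96 in colon, with Lum at 0 in both regions and Tagln at 0 in colon. The 5 endothelial markers, led by Lyve1, gave 6.50 and 8.70 against 5.66 and 4.38 CPM, with Cdh5 at 0 in colon. The first 2 sums overlapped between the regions, and the endothelial sum was higher in both ilea. The 6 neuron and glia markers, led by the receptor gene Ret, gave 13.9 and 14.0 CPM in ileum and 1.89 and 3.63 in colon, with Sox10 among the members at 0 in colon. The 7 pancreatic acinar markers, led by Cela2a, gave 0 and 0.330 CPM in ileum and 3.03 and 0.188 in colon, and Amy2a5 was at 0 in every knockout library, with Cpa1, Ctrb1 and Pnlip at 0 in ileum. Red blood cell markers, 5 genes led by Hbb-bs, gave 4.53 and 1.98 CPM in ileum and 5.38 and 16.2 in colon. Of the tested members, ileum was higher at 1 of 2 endothelial and 1 of 2 neuron and glia markers. Colon was higher at 1 of 2 endothelial and 2 of 5 red blood cell markers, against 18.1% ileal and 16.9% colonic of all genes. Medians were -0.32, 0.97 and -2.18 for endothelial, neuron and glia, and red blood cell markers. None of 3 B cell and 4 fibroblast and smooth muscle markers passed. The part of these groups in the results below was not tested either.

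Without DDX5 the 2 regions differed widely. Of 16283 genes tested with edgeR in all 8 libraries, 2955 were higher in knockout ileum (18.1% of genes tested) and 2747 higher in knockout colon (16.9%) at an adjusted p below 0.05. With a fold of at least 2 as well, these counts were 1661 (10.2%) and 1509 (9.27%). Folds of at least 8 were found at 593 ileal and 425 colonic genes, and of at least 32 at 260 and 170. The median log2 fold change over all genes tested was -0.03. Upper-quartile scaling moved that median to -0.13 and the split to 2494 ileal and 3488 colonic genes. With the 4 knockout libraries fitted alone, 1988 and 1815 genes passed, and each knockout library left out in turn gave 2058 to 2760 ileal and 2092 to 2332 colonic genes. The 4 WTIEC libraries fitted alone gave 3484 and 3353, so that the near-equal counts of the 2 genotypes below hold for the joint fit, which shares 1 estimate of variation. Between the 2 libraries of a group, chi-square per degree of freedom, near 1 for counting error alone, was 51.3 and 54.1 in knockout ileum and colon and 21.5 and 9.04 in WTIEC.

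The same comparison in WTIEC, which shares no library with the knockout, gave 2753 genes higher in ileum (16.9%) and 2760 higher in colon (17%), or 1473 and 1543 with a fold of at least 2. The counts with no fold asked fell to 1538 and 1601 when the colon of WTIEC mouse 1 was left out. Of those 1473 ileal genes, 1340 were also higher in knockout ileum by adjusted p, with no fold asked there (91.0%, 95% interval 89.4 to 92.3). Of the 1543 colonic genes, 1249 were likewise higher in knockout colon (80.9%, interval 78.9 to 82.8). With a fold of at least 2 asked in the knockout as well, the counts were 1257 (85.3%) and 1153 (74.7%). The intervals cover the count of genes alone, which are not independent. Both contrasts come from the joint fit and use the same estimate of variation at each gene, so the shares are not agreement of separate tests. Shares from each genotype fitted alone are not given here. No gene of the 3016 passed in the opposite direction, and 2993 kept their sign (99.2%). Over these genes, chosen in WTIEC, the median log2 fold change of the ileal ones was 2.29 in the knockout and 2.26 in WTIEC. That of the colonic ones was -1.79 and -2.03. Read the other way, 2685 of 3170 knockout regional genes passed in the same direction in WTIEC, with no fold asked there (84.7%). These were 1382 of 1661 ileal genes (83.2%) and 1303 of 1509 colonic genes (86.3%). The order of the 2 regions thus depended on which genotype chose the list. Over the full 1661 and 1509 genes, medians were 2.28 and -1.96 in the knockout and 1.88 and -1.86 in WTIEC. Both genotypes therefore shared most of their regional genes, in both directions.

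The interaction of region with genotype was tested at each gene, and 2 of 16283 passed (0.0123%), Slc8a1 and Mptx2, described below. By unadjusted p 750 genes were below 0.05, and DESeq2 called 15 genes more ileal and 2 more colonic in the knockout. In the fit used here no gene was called more colonic in the knockout, while 3 were without the colon of knockout mouse 2 and 54 with no filter on low counts, where 29 and 147 were called more ileal. Of the 8 fits with 1 library left out, 6 called no gene in either direction. With 2 mice per genotype, an interaction that misses the threshold does not show that the regions differed equally. Across the 16283 genes the knockout and WTIEC log2 fold changes had a Pearson r of 0.923 and a Spearman rho of 0.836, given as a description of genes that are not independent.

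**Figure D1:**
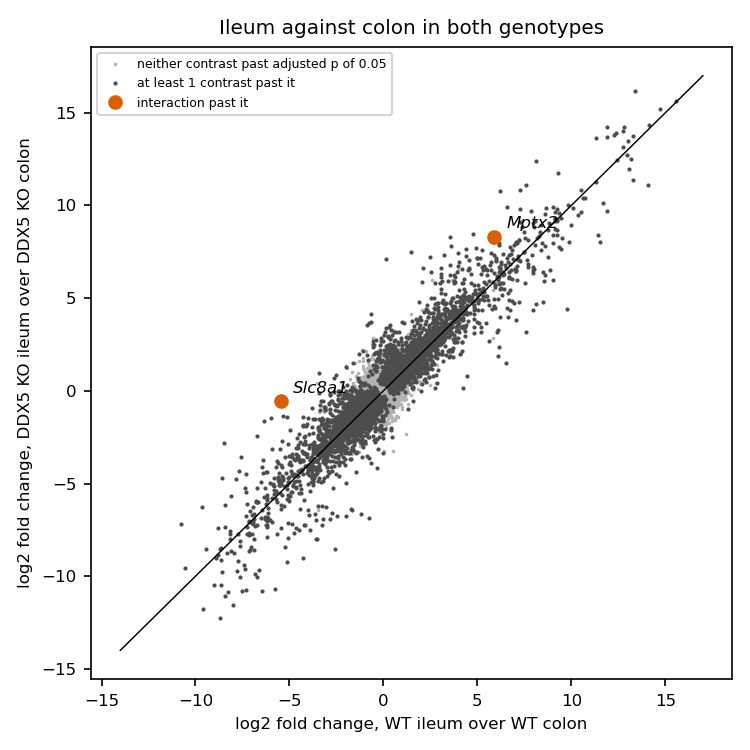
Each point is 1 of 16283 genes, with the log2 fold change of ileum over colon in WTIEC on the horizontal axis and in DDX5ΔIEC on the vertical axis (r = 0.923). Slc8a1 and Mptx2, the 2 genes that passed the interaction, are in orange.

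Placed on the line from WTIEC colon at 0 to WTIEC ileum at 1, over the 3016 WTIEC regional genes, knockout ileum lay at 0.999 and 0.954 and knockout colon at -0.0465 and 0.0158. The 4 control libraries lie at the ends by construction. On the line drawn from the knockout's 3170 genes, WTIEC ileum lay at 0.984 and 0.980 and WTIEC colon at 0.0664 and 0.0663. Every library therefore lay next to its own region and far from the other.

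Averaged over the 2 genotypes, 3478 genes were regional, 1758 ileal and 1720 colonic. All 8 libraries entered that choice, so agreement in direction within each mouse was largely set by it and is not counted here. Median log2 ratios of ileum to colon were 1.72 and -1.50 in knockout mouse 1 and 1.47 and -1.35 in mouse 2, and 1.44 and -1.44 in WTIEC mouse 1 and 1.45 and -1.44 in mouse 2. The signed difference between genotypes, positive where the knockout contrast was larger, had a median of 0.09 over these genes and 0.03 over all genes, and 0.00 to 0.27 with single libraries left out. Lower and upper quartiles were -0.32 and 0.55, and 77.6% of the regional genes lay within 1 log2 unit. Over the genes so chosen the median contrast was of similar size in the 2 genotypes, and knockout mouse 1 showed wider ratios than knockout mouse 2.

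The gene lists that follow are set beside the percentages above, 18.1% ileal and 16.9% colonic among all genes tested, and the median of -0.03. The lists were chosen with earlier results of these data known, so their counts are a description and not a test. Differences are log2 fold changes of ileum over colon in the knockout, positive where ileum was higher. Genes named outside the rule given in the methods were chosen after their values were seen. Of 20 alternatives, 12 ended the call of Atp1b1, 11 each those of Clca1 and Cdx2, 9 that of Hnf4a and 7 that of Cldn2. The call of Esr1 was ended by 5, those of C1galt1 and Chgb by 4 each and that of Isx by 3. Galnt7 and the cytochrome P450 gene Cyp2d26 lost theirs under 2 each, and Agr2, Cldn14 and Cyp3a13 under 1 each. In bulk RNA, fewer cells of a type and less RNA per cell cannot be told apart.

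**Figure D2:**
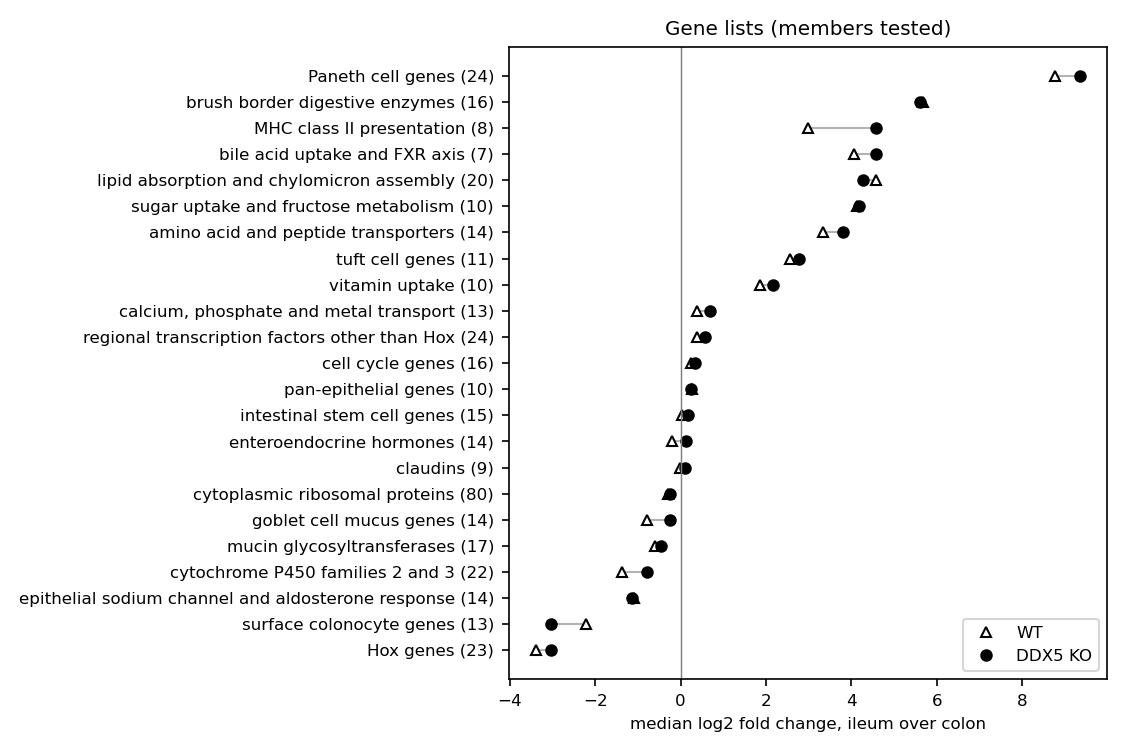
Median log2 fold change of ileum over colon for each gene list, in DDX5ΔIEC (circles) and WTIEC (triangles). Genes at 0 in 1 region enter at the bound that their counts allow, so that Paneth cell genes stand at 9.35 in the knockout and Hox genes at -3.03.

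Bile acid genes were ileal without DDX5. Of 7 tested genes 6 were higher in ileum and 1 in colon, with a median of 4.57 (4.06 in WTIEC). Fabp6, the cytosolic bile acid binding protein of ileal enterocytes (ENSMUSG00000020405.4, chr11:43596049-43601540, minus strand), had 2254 and 1051 CPM in ileum and 2.86 and 3.67 in colon, a log2 fold change of 8.97 (SE 0.62, adjusted p = 2.11e-05). Its uptake partner Slc10a2, the apical bile acid transporter, had 1195 and 645 CPM in ileum and 9.61 and 67.6 in colon (4.57, SE 0.77), or 3.75 and 6.57 without the colon of mouse 1 and 2. Both genes were higher in both ileal libraries, with the colon of mouse 1 the lowest of all at Slc10a2.

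Basolateral export showed the same order. Slc51a had 607 and 299 CPM in ileum and 1.32 and 20.8 in colon (5.33, adjusted p = 0.00297), and the difference was 4.42 without the colon of mouse 1 and 8.41 without that of mouse 2. The list median moved from 3.75 to 6.57 with the same 2 libraries left out, and its 6 ileal and 1 colonic calls stayed. Slc51b, the other subunit, had 244 and 114 CPM in ileum and 10.6 and 19.3 in colon. The FXR receptor gene Nr1h4, which senses bile acids, had 231 and 152 CPM in ileum and 46.9 and 87.2 in colon (1.51). Its target Fgf15, the hormone that represses bile acid synthesis in the liver, had 35.3 and 24.8 CPM in ileum and 0 in both colons, at least 192-fold higher. Bounds of this kind set the silent region at 3 counts per library, and they and the intervals given for genes with 1 to 3 counts cover counting error only. Abcc3, a basolateral exporter of conjugated bile acids, ran the other way at 149 and 93.3 CPM in ileum and 354 and 398 in colon (-1.63, adjusted p = 0.000802).

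Lipid absorption was strongly ileal. Of 20 tested genes for fat uptake and chylomicron assembly 18 were higher in ileum and 2 in colon, with a median of 4.28 (4.57 in WTIEC). Apoa1, an apolipoprotein of chylomicrons and HDL, had 3394 and 1993 CPM in ileum and 0.286 and 0.471 in colon (12.74, SE 0.61, adjusted p = 3.85e-06). For Apob, the structural protein of the chylomicron, the values were 5520 and 4208 CPM in ileum and 127 and 195 in colon (4.91, adjusted p = 9.94e-06). Mttp, which loads lipid onto Apob, had 1026 and 769 CPM in ileum and 3.72 and 3.44 in colon (7.97). Ileum and colon did not overlap at any of these 3 genes.

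Uptake and activation of lipid followed. The cholesterol transporter Npc1l1 had 618 and 450 CPM in ileum and 0.458 and 0.801 in colon (9.68). Acsl5, which activates fatty acids, had 1309 and 841 CPM in ileum and 130 and 141 in colon (2.99). Apoc3, an inhibitor of triglyceride clearance, had 17.8 and 9.80 CPM in ileum and 0 in colon, at least 88.3-fold. The 2 members higher in colon were Plin2, a lipid droplet coat protein, with 42.7 and 40.8 CPM in ileum and 151 and 97.8 in colon (-1.57), and Scarb1. Scarb1, a receptor for HDL, had 0.886 and 1.32 CPM in ileum and 16.1 and 15.3 in colon (-3.83), the opposite of the list as a whole.

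Fatty acid binding proteins, which carry lipid in the cytosol, and complement C3 are named in the study. Fabp1, the liver-type protein, had 25.6 and 22.0 CPM in knockout ileum and 0.0572 and 0.141 in knockout colon (7.75, adjusted p = 1.45e-05). Fabp2, the intestinal type, had 2331 and 628 CPM in ileum and 163 and 280 in colon (2.74, adjusted p = 0.00599), or 1.49 without the ileum of mouse 1. Both were ileal in each mouse, Fabp2 by less in mouse 2. Fabp3, the heart type, had 4.04 and 1.21 CPM in ileum and 0 and 0.0471 in colon, a ratio of 105 (95% interval 18.0 to 4213). The epidermal type Fabp5 had 4.33 and 2.86 CPM in ileum and 2.75 and 3.01 in colon (0.33, adjusted p = 0.389), and -0.02 or 0.59 without the ileum of mouse 1 or 2. Of the 6 tested genes of this family with C3, 4 were higher in ileum and none in colon, with a median of 4.53, or 2.25 with no filter. C3 had 3.35 and 2.31 CPM in knockout ileum and 4.29 and 3.72 in knockout colon (-0.49, adjusted p = 0.318), and -0.80 or -0.26 without the ileum of mouse 1 or 2. In WTIEC it had 3.45 and 1.58 CPM in ileum and 13.3 and 14.0 in colon (-2.39), and the interaction was 1.90 (SE 0.48, unadjusted p = 0.00358, adjusted p = 0.928). The 2 regions were thus near each other at C3 in the knockout, while the difference between genotypes did not pass.

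Digestive enzymes of the brush border were ileal almost throughout. Of 16 tested genes 15 were higher in ileum and none in colon, with a median of 5.60 (5.68 in WTIEC). Anpep, aminopeptidase N (ENSMUSG00000039062.15, chr7:79821803-79861059, minus strand), had 5665 and 3774 CPM in ileum and 3.43 and 3.48 in colon (10.41, SE 0.37, adjusted p = 1.26e-06). Sucrase-isomaltase, Sis, had 3051 and 2445 CPM in ileum and 0.400 and 12.6 in colon (8.70, SE 1.16), or 7.75 and 12.70 without the colon of mouse 1 and 2. Maltase-glucoamylase, Mgam, had 3317 and 1989 CPM in ileum and 413 and 571 in colon (2.43). No ileal library overlapped a colonic one, and at Sis the colon of mouse 1 was well below that of mouse 2. The peptidase Naaladl1 had 2361 and 1636 CPM in ileum and 35.6 and 52.8 in colon (5.50). Lactase, Lct, was the member that did not pass, at 5.02 and 1.10 CPM in ileum and 0.286 and 0.141 in colon (3.85, adjusted p = 0.0676), and it passed with the replicate block, a term for mouse (adjusted p = 0.00536).

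Promoters were read for 5 genes, since intestinal factors of the CDX family regulate genes of the brush border and of lipid transport. The letters TTTATNG, searched on both strands in the 250 bases before the start, were found in 4 of 15 brush border genes (26.7%) and 6 of 16 lipid genes (37.5%) with a promoter on file. Among all genes tested they were found in 7.80%, among genes at least 2-fold higher in knockout ileum in 11.1%, in knockout colon in 9.90%, and among all genes with a promoter on file in 11.3% (9.81% of all promoters). Letters of 2 other families of intestinal factors were searched in the same way. AGATAA, of the GATA factors, was found in 4 of 15 brush border genes, 3 of 16 lipid genes, 7.66% of genes tested and 11.4% of genes on file (9.99% of all promoters). CAAAGNNCA, of HNF4, was found in 3 of 15, 5 of 16, 5.67% and 6.29% (5.49% of all promoters). Among genes at least 2-fold higher in knockout ileum and colon, AGATAA was found in 11.4% and 6.96%, and CAAAGNNCA in 9.43% and 6.37%. A match describes these letters only. Sequences are from RefSeq, build GRCm38.p6, 5' to 3' on the gene's strand, with matches to TTTATNG alone in capitals. The window of Apob held CAAAGNNCA as well, left in small letters, and no window held AGATAA. Sis and Apob are shown as abundant ileal genes with a match, Mptx2 for its interaction, and Fabp6 and Aqp8 as the leading ileal bile acid gene and a leading colonic gene. Their windows are Sis chr3:72967864-72968113, minus strand, Apob chr12:7977427-7977676, plus strand, Mptx2 chr1:173277757-173278006, minus strand, Fabp6 chr11:43601563-43601812, minus strand, and Aqp8 chr7:123462044-123462293, plus strand.
Sis: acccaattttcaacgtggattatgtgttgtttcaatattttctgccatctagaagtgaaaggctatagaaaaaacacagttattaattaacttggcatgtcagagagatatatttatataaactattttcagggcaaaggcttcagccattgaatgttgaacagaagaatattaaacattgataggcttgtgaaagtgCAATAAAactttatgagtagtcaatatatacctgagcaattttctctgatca
Apob: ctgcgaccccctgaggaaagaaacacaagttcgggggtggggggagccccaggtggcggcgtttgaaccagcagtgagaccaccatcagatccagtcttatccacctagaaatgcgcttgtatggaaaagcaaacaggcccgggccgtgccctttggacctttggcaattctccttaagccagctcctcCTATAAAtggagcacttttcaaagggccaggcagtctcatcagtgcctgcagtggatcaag
Mptx2: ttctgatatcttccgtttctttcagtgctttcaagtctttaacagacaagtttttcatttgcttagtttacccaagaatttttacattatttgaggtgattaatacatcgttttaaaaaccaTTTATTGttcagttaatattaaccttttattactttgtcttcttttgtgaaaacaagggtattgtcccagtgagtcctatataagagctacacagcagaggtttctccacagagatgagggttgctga
Fabp6: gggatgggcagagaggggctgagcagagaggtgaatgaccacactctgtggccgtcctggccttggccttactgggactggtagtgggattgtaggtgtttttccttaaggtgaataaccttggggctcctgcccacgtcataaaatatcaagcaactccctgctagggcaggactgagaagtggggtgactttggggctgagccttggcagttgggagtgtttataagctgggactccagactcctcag
Aqp8: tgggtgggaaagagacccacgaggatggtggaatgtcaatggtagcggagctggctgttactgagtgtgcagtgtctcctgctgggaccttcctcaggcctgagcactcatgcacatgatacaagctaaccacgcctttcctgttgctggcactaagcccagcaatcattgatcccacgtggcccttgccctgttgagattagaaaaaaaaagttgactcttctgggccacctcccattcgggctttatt
As printed, the match to TTTATNG began 52 bases before the start in Sis, 61 in Apob and 128 in Mptx2, and the windows of Fabp6 and Aqp8 held none. The start meant is that of RefSeq. It differs from the GENCODE gene positions given elsewhere, which the windows of Mptx2 and Aqp8 overlap by some bases.

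Amino acid and peptide transporters were ileal in 12 of 14 tested genes and colonic in 2, with a median of 3.79 (3.34 in WTIEC). Slc6a19, the main apical carrier of neutral amino acids, had 1346 and 610 CPM in ileum and 2.86 and 3.63 in colon (8.23, SE 0.43, adjusted p = 5.77e-06). Slc3a1, a subunit of the cystine and basic amino acid carrier, had 536 and 303 CPM in ileum and 15.2 and 31.3 in colon (4.17). The peptide transporter Slc15a1 had 835 and 375 CPM in ileum and 202 and 90.1 in colon (2.05), or 1.35 without the ileum of mouse 1. Ileum was above colon at all 3, with mouse 1 above mouse 2 in the ileum. Colon was higher at Slc6a14, a carrier of neutral and basic amino acids, with 192 and 43.6 CPM in ileum and 1036 and 907 in colon (-3.04, adjusted p = 0.00799). Slc36a1, a proton-coupled amino acid carrier, had 33.9 and 28.5 CPM in ileum and 158 and 71.9 in colon (-1.88), or -1.22 without the colon of mouse 1.

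All 10 tested genes of sugar uptake and fructose metabolism were higher in knockout ileum, with a median of 4.17 (4.12 in WTIEC). Slc5a1, the sodium-glucose cotransporter, had 2535 and 1189 CPM in ileum and 201 and 168 in colon (3.34, SE 0.33). Ketohexokinase Khk and triokinase Tkfc, enzymes of fructose breakdown, followed. Khk had 75.0 and 43.6 CPM in ileum and 8.18 and 8.38 in colon (2.84), and Tkfc 120 and 121 in ileum and 9.15 and 9.37 in colon (3.70).

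Vitamin uptake was ileal at 8 of 10 tested genes and colonic at none, with a median of 2.16 (1.87 in WTIEC). Without the colon of mouse 2 the median was 3.42 and 1 member, the folate transporter Slc46a1, passed as colonic, as it did with a block for mouse (-0.92, adjusted p = 0.00728). Cubn, the receptor for vitamin B12 bound to intrinsic factor, had 709 and 620 CPM in ileum and 0.172 and 15.8 in colon (6.35, SE 1.11, adjusted p = 0.00281), with 5.37 without the colon of mouse 1 and 11.84 without that of mouse 2. Rbp2, which binds retinol, had 237 and 205 CPM in ileum and 14.5 and 6.31 in colon (4.42). The riboflavin transporter Slc52a3 had 210 and 125 CPM in ileum and 31.9 and 29.6 in colon (2.45). These 3 separated the regions in both mice, although colonic Cubn varied most between them. Isx, a repressor of vitamin A uptake, had 94.1 and 103 CPM in ileum and 9.09 and 44.3 in colon (1.87, adjusted p = 0.0284). Leaving out the colon of mouse 1 or 2 gave 1.13 or 3.42, and leaving out the ileum of mouse 1 or 2 ended the call (adjusted p = 0.0604 and 0.0732).

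The ileum of mouse 1 was above that of mouse 2 across the enterocyte lists. The median log2 ratio of mouse 1 to mouse 2 in ileum was 0.89 for bile acid genes, 0.62 for lipid genes, 0.76 for brush border genes and 0.01 for all genes. Its part in the sizes above was not tested, and the counts of these lists moved by less than 1.5 times when either ileum was left out.

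**Figure D3:**
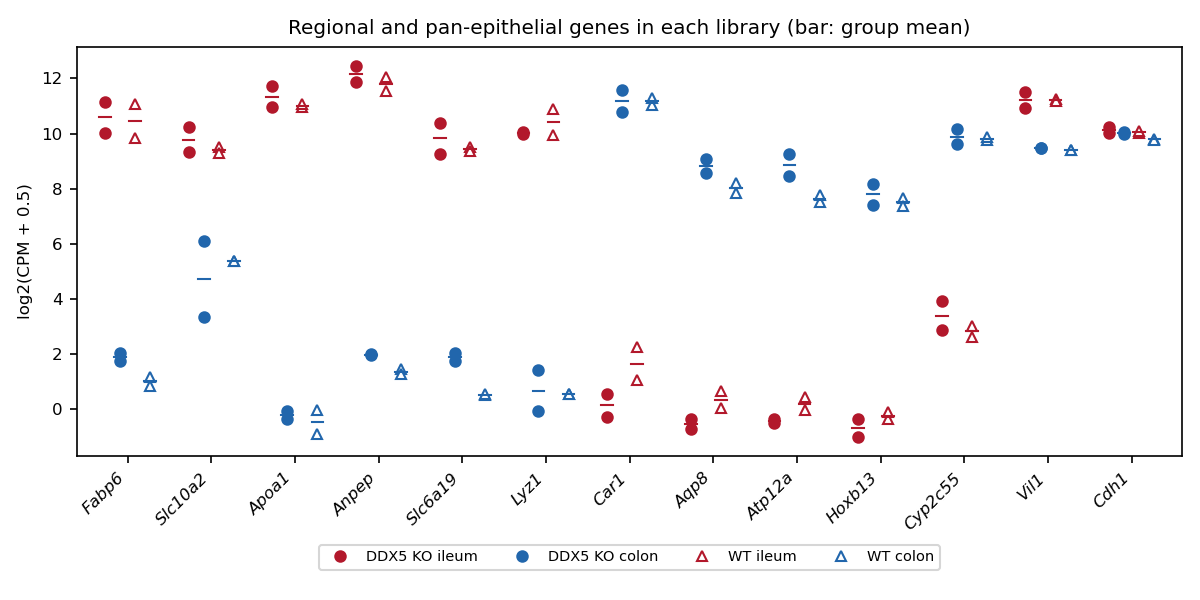
Level of regional and epithelial genes in each library, as log2 of CPM plus 0.5, with ileum in red and colon in blue, DDX5ΔIEC as filled circles and WTIEC as open triangles. Bars are group means, and in the knockout Fabp6 lay at 2254 and 1051 CPM in ileum against 2.86 and 3.67 in colon.

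Paneth cell genes had the largest median of all lists. Of 24 tested genes 23 were higher in knockout ileum and 1 in colon, with a median of 12.99, or 9.35 with silent genes at their bounds (11.78 and 8.76 in WTIEC). Among genes that both deposited tables list, 13 of 14 were ileal. Defa24 (ENSMUSG00000064213.5), an alpha-defensin that kills bacteria, had 5914 and 6397 CPM in ileum and 0.458 and 0.283 in colon (14.02, SE 0.72, adjusted p = 5.53e-06). Defa30 had 2816 and 3458 CPM in ileum and 0.286 and 0.0471 in colon. Among other defensins, Defa22 at 621 and 512 CPM and Defa21 at 426 and 338, had no count in either colon, at least 3623-fold and 2442-fold higher in ileum. Defensin genes are close in sequence, and reads that match several were not counted, so levels of single members are uncertain.

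By the rule of largest difference, the other leading ileal genes were 5 defensins and 1 predicted gene. Defa5, Defa2, Defa20 and Defa34 were silent in knockout colon, with bounds of at least 1799, 1011, 910 and 674-fold. Defa17 had 778 and 894 CPM in ileum and 0 and 0.0942 in colon, a ratio of 1.61e+04 (95% interval 4462 to 1.33e+05). The predicted gene Gm14851 had 510 and 519 CPM in ileum and 0 and 0.0471 in colon, a ratio of 1.99e+04 (95% interval 3573 to 7.87e+05). The rule itself asks for separate regions and a high level in ileum.

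Beyond defensins, the Paneth cell secretory set was present. Lysozyme, Lyz1, had 1002 and 1080 CPM in ileum and 2.17 and 0.471 in colon (9.67, SE 0.63). Itln1, a lectin for microbial sugars, had 2078 and 2149 CPM in ileum and 15.2 and 38.1 in colon (6.31). Mmp7, the protease that activates mouse defensins, had 203 and 225 CPM in ileum and 0.801 and 1.79 in colon. The 2 mice were close to each other in ileum at each. Spink4, shared with goblet cells, had 2076 and 2042 CPM in ileum and 626 and 543 in colon (1.82). Nupr1, a stress-induced regulator, was the 1 member higher in colon, at 36.5 and 27.4 CPM in ileum and 89.2 and 105 in colon (-1.60, adjusted p = 0.00618). Summed over the list, Paneth cell genes reached 17879 and 18702 CPM in ileum and 736 and 691 in colon.

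Mptx2, a pentraxin of Paneth cells (ENSMUSG00000079180.4, chr1:173274382-173277777, minus strand), was 1 of the 2 genes that passed the interaction. It had 520 and 539 CPM in knockout ileum and 1.72 and 1.60 in knockout colon (8.32, SE 0.21, adjusted p = 3.99e-07), the smallest adjusted p of the knockout comparison. In WTIEC the values were 418 and 372 CPM in ileum and 5.58 and 7.56 in colon (5.90). Knockout ileum lay above WTIEC ileum and knockout colon below WTIEC colon, and the regional difference was wider in the knockout. The interaction was 2.41 (SE 0.24, adjusted p = 0.0476), and 2.16 to 2.601 under all alternatives. The call was lost with the replicate block (adjusted p = 0.102), with a mean of at least 10 counts (0.0505), with protein-coding genes alone (0.0584), and with any single library left out except the colon of knockout mouse 2. Its paralog Mptx1 ran the other way, at 162 and 147 CPM in knockout ileum and 2524 and 2738 in knockout colon (-4.09), against 137 and 172 in ileum and 7291 and 8752 in colon of WTIEC. For Mptx1 the interaction was 1.61 (adjusted p = 0.483), and reads shared by the 2 paralogs leave both levels uncertain.

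Colonocyte genes marked the other region. Of 13 tested surface colonocyte genes none was higher in knockout ileum and 9 were higher in colon, with a median of -3.02 (-2.20 in WTIEC). Car1, the carbonic anhydrase of colonocytes (ENSMUSG00000027556.15, chr3:14766216-14808368, minus strand), had 0.985 and 0.330 CPM in ileum and 1764 and 3060 in colon (-11.79, SE 0.66, adjusted p = 7.96e-06). The water channel Aqp8 (ENSMUSG00000030762.11, chr7:123462291-123468004, plus strand) had 0.295 and 0.110 CPM in ileum and 537 and 377 in colon (-11.05, SE 0.42, adjusted p = 1.56e-06). Slc26a3, the chloride-bicarbonate exchanger, had 154 and 116 CPM in ileum and 1358 and 842 in colon (-3.02). Both knockout colons were far above both ilea at Car1 and Aqp8, which were all but silent in ileum. Lypd8, which keeps flagellated bacteria from the colonic surface, had 1639 and 1108 CPM in ileum and 5538 and 4387 in colon (-1.85). Car4, a membrane carbonic anhydrase, did not pass, at 503 and 457 CPM in ileum and 459 and 328 in colon (0.29, adjusted p = 0.235), nor did the hormone precursor Guca2a (-0.30, adjusted p = 0.186). The list median was -4.17 without the ileum of mouse 1.

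Sodium absorption was colonic as well. Of 14 tested genes of the epithelial sodium channel and the aldosterone response 8 were higher in colon and 1 in ileum, with a median of -1.14 (-1.10 in WTIEC). Atp12a, the colonic proton-potassium pump, had 0.295 and 0.220 CPM in ileum and 620 and 354 in colon (-10.83, SE 0.46). The channel subunit Scnn1b had no count in ileum and 16.9 and 8.29 CPM in colon, at least 40.2-fold higher, and Scnn1g had 0.197 and 0.110 CPM in ileum and 18.5 and 2.68 in colon (-6.01). Scnn1a, the subunit present in both regions, had 21.7 and 30.8 CPM in ileum and 70.8 and 53.1 in colon (-1.24). Beta and gamma subunits of the channel were thus at or near 0 in ileum, and in colon higher in mouse 1, with Scnn1g at -4.06 without that library and -6.84 without the colon of mouse 2. Hsd11b2, which protects the aldosterone receptor from glucocorticoids, had 10.6 and 16.0 CPM in ileum and 118 and 92.6 in colon (-2.99). The receptor itself, Nr3c2, had 139 and 93.6 CPM in ileum and 346 and 281 in colon (-1.43). Atp1b1, a subunit of the sodium pump, was the ileal member at 1394 and 1233 CPM in ileum and 1023 and 916 in colon (0.44, adjusted p = 0.0449), a call lost under 12 of 20 alternatives, with adjusted p of 0.113 without the ileum of mouse 1.

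Other genes at the top of the colonic order were of several kinds. Ly6g, a surface protein known from neutrophils, had 49.3 and 24.4 CPM in colon and none in ileum, at least 118-fold. Lpo, lactoperoxidase, had 16.5 and 29.5 CPM in colon and none in ileum, at least 73.4-fold. The carbonyl reductase Cbr2 had 15.8 and 11.3 CPM in colon against none, at least 43.2-fold. Each was present in both knockout colons and absent from both ilea. Hoxa11os, an antisense transcript of the Hoxa cluster, had 0 and 0.110 CPM in ileum and 116 and 53.3 in colon, a ratio of 1570 (95% interval 282 to 6.20e+04). The uncharacterized 2310079G19Rik and Gm8540 had no ileal count, with bounds of at least 42.3 and 41.2-fold.

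Position along the gut was also written in the Hox genes. Of 39 Hox genes 23 could be tested, and 15 were higher in knockout colon and none in ileum, with a median of -4.86, or -3.03 with silent genes at their bounds (-3.76 and -3.39 in WTIEC). With single libraries left out, where up to 26 could be tested, it reached -2.18, without the ileum of knockout mouse 1, and with no filter it was -1.35 over 39. Hoxb13, the most posterior Hoxb gene (ENSMUSG00000049604.3, chr11:96194316-96197447, plus strand), had 0.295 and 0 CPM in ileum and 292 and 171 in colon, a ratio of 1446 (95% interval 495 to 7014). Hoxa13 had 0 and 0.330 CPM in ileum and 70.9 and 50.4 in colon, a ratio of 383 (95% interval 131 to 1856), and its ileal counts came from mouse 2 alone. Hoxd13 had 0 and 0.110 CPM in ileum and 71.3 and 22.5 in colon, a ratio of 856 (95% interval 154 to 3.38e+04). The 3 posterior genes of group 13 were abundant in both colons and at or near 0 in both ilea. Hoxa9 had 0 and 0.110 CPM in ileum and 39.2 and 30.4 in colon, and Hoxa3 1.08 and 2.31 in ileum and 14.5 and 13.1 in colon (-3.03). Hoxb9 was expressed in both regions, at 22.5 and 19.4 CPM in ileum and 37.0 and 44.6 in colon (-0.96, adjusted p = 0.00693).

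The 8 that did not pass were Hoxa4, Hoxd8 and the anterior Hoxb genes Hoxb3 to Hoxb8. At Hoxb6 the ileum had 14.6 and 15.9 CPM and the colon 2.23 and 16.5 (0.68, adjusted p = 0.455), so the colon of mouse 1 was low and that of mouse 2 level with ileum. Without the colon of mouse 1 the value was -0.14 (adjusted p = 0.68) and without that of mouse 2 2.75 (0.000171). Without the colon of mouse 2, 6 Hox genes passed as ileal, and with the replicate block Hoxb8 did (1.66, adjusted p = 0.03). The summed level was 62.1 and 73.6 CPM in ileum and 626 and 452 in colon. At Osr2, a zinc-finger factor, the colon of mouse 1 was again apart, with 63.6 and 71.8 CPM in ileum and 0 and 25.4 in colon (2.39, adjusted p = 0.129), against 12.5 and 25.7 in WTIEC colon. Osr2 passed as ileal without the colon of mouse 1 (1.39, adjusted p = 0.0218) and without that of mouse 2 (adjusted p = 3.71e-05), where no colonic count remained. At Hoxd13 the colon of mouse 1 was above the other, and at Scnn1g too. The sources used here do not state which stretch of colon each library came from, so that tissue position and mouse cannot be told apart in these values.

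**Figure D4:**
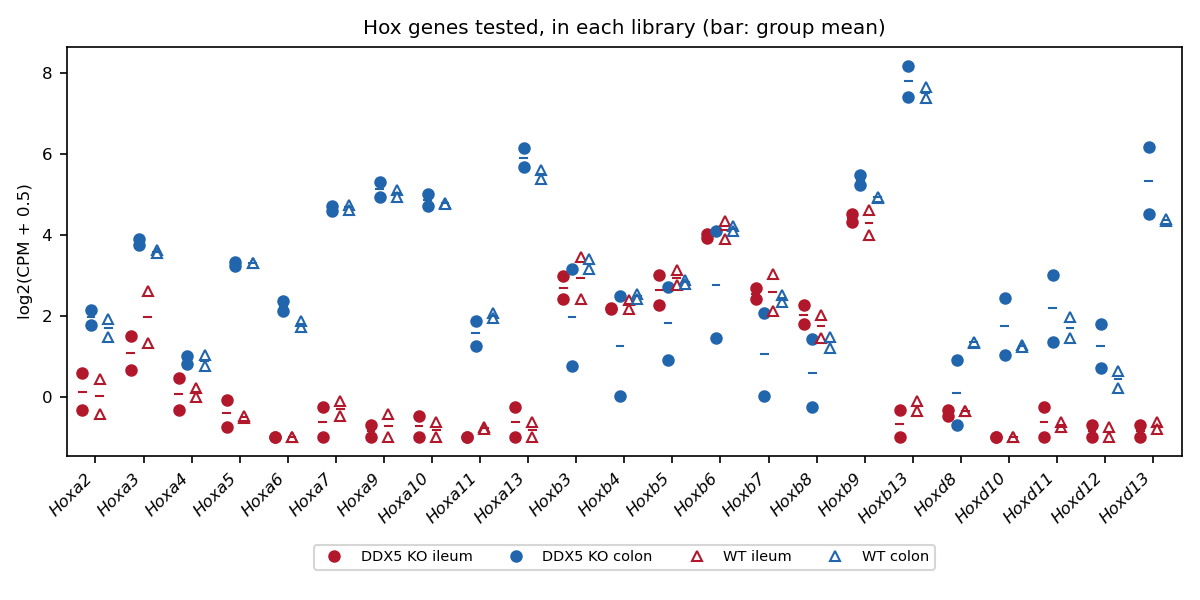
Level of the 23 tested Hox genes in each library, as log2 of CPM plus 0.5, with ileum in red and colon in blue. In DDX5ΔIEC 15 were higher in colon, and Hoxb6 had 2.23 and 16.5 CPM in the 2 colons.

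Other regional transcription factors divided by region. Of 24 tested 11 were higher in knockout ileum and 5 in colon, with a median of 0.56 (0.38 in WTIEC). Gata4, which sets the small intestinal program, had 16.6 and 14.3 CPM in ileum and 0.400 and 0.801 in colon (4.64, SE 0.62). Gata5 had 109 and 70.2 CPM in ileum and 0.172 and 0.471 in colon (8.03). Maf, a regulator of enterocyte genes along the villus, had 408 and 301 CPM in ileum and 6.58 and 8.67 in colon (5.53). Gata4 and Gata5 were near 0 in knockout colon, and Maf was low there. Hnf4g, a nuclear receptor of enterocytes, had 214 and 232 CPM in ileum and 31.3 and 37.8 in colon (2.69). Hnf4a had 1148 and 867 CPM in ileum and 753 and 627 in colon (0.55, adjusted p = 0.0394), or 0.32 without the ileum of mouse 1 (adjusted p = 0.153).

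Among factors higher in colon, the forkhead factor Foxd2 had 0.197 and 0.220 CPM in ileum and 32.0 and 38.1 in colon (-7.35). The nuclear receptor Pparg had 11.5 and 9.69 CPM in ileum and 58.5 and 66.7 in colon (-2.56). Colon was higher in both mice at these 2. Klf4, a factor of differentiated surface and goblet cells, had 370 and 326 CPM in ileum and 702 and 585 in colon (-0.89). The estrogen receptor gene Esr1 had 0.886 and 1.87 CPM in ileum and 4.40 and 3.06 in colon (-1.44, adjusted p = 0.0218), a call lost without the colon of mouse 1 (0.0864) or the ileum of mouse 1 (0.119).

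Cdx2, the homeobox factor of the whole intestinal epithelium, had 302 and 189 CPM in knockout ileum and 124 and 180 in knockout colon (0.69, adjusted p = 0.0499). Mouse 1 made most of that difference, and the ileum of mouse 2 was near its colon. Without the colon of mouse 1 the value was 0.43 (adjusted p = 0.254), without the ileum of mouse 1 0.30 (0.295), and the replicate block gave an adjusted p of 0.082. In WTIEC Cdx2 had 213 and 196 CPM in ileum and 220 and 216 in colon (-0.10), and the interaction did not pass (0.79, adjusted p = 1). Cdx1 did not differ past the threshold (-0.33, adjusted p = 0.101).

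Goblet cell mucus genes were mixed in the knockout. Of 14 tested 4 were higher in ileum and 3 in colon, with a median of -0.25, where WTIEC had 1 and 10 and a median of -0.79. With the replicate block the knockout counts were 3 and 4. The knockout median ran from -0.44 to -0.09 with the ileum of mouse 1 or 2 left out. Muc2, the gel-forming mucin, had 7518 and 10047 CPM in knockout ileum and 9154 and 19876 in knockout colon (-0.72, adjusted p = 0.155). Fcgbp, which crosslinks mucus, had 11647 and 7612 CPM in ileum and 11518 and 12678 in colon (-0.33, adjusted p = 0.393). The antimicrobial Retnlb had 297 and 172 CPM in ileum and 102 and 376 in colon (-0.03, adjusted p = 0.972). Ileum and colon overlapped at these 3, and the 2 knockout colons were far apart at Muc2 and Retnlb. Agr2, needed to fold mucin, was higher in colon at 985 and 1283 against 639 and 673 CPM (-0.79, adjusted p = 0.00874). Muc1, a membrane mucin, had 0 and 0.220 CPM in ileum and 4.86 and 4.43 in colon, a ratio of 44.5 (95% interval 12.1 to 370), and Muc4 was higher in colon too (-0.91).

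On the ileal side of that list were Clca1, Ang4, Tff3 and Fer1l6. Clca1, a secreted metalloprotease of mucus, had 10941 and 8450 CPM in knockout ileum and 4268 and 6725 in knockout colon (0.82, adjusted p = 0.0427), against 9285 and 8622 in ileum and 15632 and 16272 in colon of WTIEC (-0.83, adjusted p = 0.0411). The knockout call was lost under 11 of 20 alternatives, among them the replicate block (adjusted p = 0.0532) and the fit without the colon of mouse 1 (0.51, adjusted p = 0.161), and the interaction was 1.65 (adjusted p = 0.928). Ang4, an antimicrobial ribonuclease, had 2386 and 3072 CPM in knockout ileum and 207 and 400 in knockout colon (3.17, adjusted p = 0.000137). In WTIEC Ang4 had 2447 and 2302 CPM in ileum and 1367 and 1572 in colon, and its interaction was 2.48 (adjusted p = 0.483). Tff3, a trefoil peptide of mucus, had 1491 and 894 CPM in ileum and 413 and 334 in colon (1.68). Without the colon of mouse 1, 2 genes of the list were ileal. Summed over the list, the level was 36703 and 32196 CPM in knockout ileum and 28996 and 43638 in knockout colon, against 30833 and 26600 in WTIEC ileum and 50856 and 56733 in WTIEC colon. The knockout colons were the lower pair of colons in that sum, the ilea the higher pair of ilea, and no goblet gene passed the interaction.

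Enzymes that build mucin sugars had members on both sides too. Of 17 tested glycosyltransferases 2 were higher in ileum and 9 in colon, with a median of -0.45 (-0.59 in WTIEC), while 3 were ileal and 4 colonic without the colon of mouse 2, and 2 and 4 in the knockout libraries alone. St6galnac6, a sialyltransferase, had 9.16 and 7.82 CPM in ileum and 684 and 557 in colon (-6.19, SE 0.26). B3gnt7, which extends sugar chains, had 62.9 and 63.0 CPM in ileum and 552 and 230 in colon (-2.63). C1galt1, which makes the core 1 structure, and Galnt7, which starts or extends O-glycans, differed by less (-0.50 and -0.58), and both calls were lost without the colon of mouse 2 (adjusted p = 0.115 and 0.0592). St3gal4, also a sialyltransferase, was ileal at 2055 and 1671 against 430 and 347 CPM (2.26). Gcnt4, a branching enzyme, was ileal at 112 and 99.7 against 1.72 and 7.35 CPM (4.51).

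Enteroendocrine hormones were mixed by region. Of 14 tested 6 were higher in knockout ileum and 4 in colon, with a median of 0.12, where WTIEC had 2 and 6 and a median of -0.21. The sign of the knockout median was not stable, at -0.03 without the colon and -0.16 without the ileum of mouse 1, 0.42 without the ileum of mouse 2, -0.16 with a mean of at least 10 counts and -0.25 with no filter. Without the colon of mouse 1, 3 were ileal. Pyy, a peptide of L cells that reduces appetite, had 8.57 and 6.50 CPM in ileum and 34.6 and 30.7 in colon (-2.11, SE 0.18, adjusted p = 7.06e-05). Insl5, a hormone of colonic L cells, had 0.0985 and 0.110 CPM in ileum and 28.6 and 24.2 in colon, a ratio of 252 (95% interval 69.5 to 2083). Gcg, the precursor of GLP-1, had 22.4 and 20.9 CPM in ileum and 36.4 and 39.7 in colon (-0.81). All 3 products of L cells were higher in both colons. Chgb, a granule protein, had 41.9 and 36.3 CPM in ileum and 50.3 and 78.0 in colon (-0.71), or -0.37 without the colon of mouse 2 (adjusted p = 0.0954). Among hormones higher in ileum, 3 are given, chosen after their values were seen. Neurotensin, Nts, had 22.4 and 13.7 CPM in ileum and 0.286 and 4.71 in colon (2.80, or 1.92 and 5.93 without the colon of mouse 1 and 2), secretin, Sct, 26.9 and 13.5 in ileum and 2.23 and 6.64 in colon (2.17, or 1.59 and 3.17), and Gip 2.17 and 3.08 in ileum and 0.0572 and 0 in colon (6.29).

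Claudins, the seal and pore proteins of tight junctions, split by member. Of 9 tested 4 were higher in ileum and 3 in colon, with a median of 0.11 (-0.01 in WTIEC), which ran from 0.00 with upper-quartile scaling to 0.94 with no filter (22 tested). Cldn15, a pore for sodium, had 457 and 407 CPM in ileum and 109 and 154 in colon (1.72, SE 0.18). Cldn8, a sealing claudin of the distal gut, had 3.05 and 6.72 CPM in ileum and 114 and 112 in colon (-4.55). Cldn4 and Cldn7 were ileal, Cldn4 at 196 and 129 against 40.2 and 30.3 CPM (2.20) and Cldn7 at 896 and 736 against 473 and 463 (0.80). No library crossed over at these 4. Cldn12 (-0.59) and Cldn14 (-2.54) were colonic. Cldn2, a pore for cations, was ileal (0.63, adjusted p = 0.0424), or 0.40 without the colon of mouse 1 (adjusted p = 0.228).

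Transport of calcium, phosphate and metals was ileal at 6 of 13 tested genes and colonic at 2, with a median of 0.69 (0.38 in WTIEC), or 0.32 and 1.14 without the ileum of mouse 1 and 2, and ileal at 10 without the ileum of mouse 2. Slc34a2, the phosphate carrier of the ileum, had 635 and 437 CPM in ileum and 40.8 and 49.5 in colon (3.57, SE 0.26). Heph, a ferroxidase for iron export, had 471 and 321 CPM in ileum and 189 and 206 in colon (1.00). The zinc transporter Slc39a5 had 154 and 123 CPM in ileum and 64.5 and 57.9 in colon (1.181). Ileum was above colon in both mice. Slc40a1, the iron exporter ferroportin, was colonic at 255 and 164 against 52.7 and 19.2 CPM (-2.54). Trpv6, the apical calcium channel, was colonic as well, at 28.0 and 8.81 against 0.0985 and 0.220 CPM, a ratio of 112 (95% interval 38.2 to 545).

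Slc8a1, a sodium-calcium exchanger (ENSMUSG00000054640.14), was the other gene that passed the interaction. It had 28.5 and 32.9 CPM in knockout ileum and 30.4 and 59.2 in knockout colon (-0.55, SE 0.26, adjusted p = 0.142). In WTIEC the values were 1.53 and 1.58 CPM in ileum and 68.3 and 68.7 in colon (-5.46, adjusted p = 1.29e-05). WTIEC was high in colon and low in ileum, while both knockout ilea stood close to the knockout colon of mouse 1. The interaction was 4.91 (SE 0.43, adjusted p = 0.0351), and 4.50 to 5.47 under all alternatives. Its adjusted p was 0.0584 among protein-coding genes alone, and 0.0793 to 0.382 with 1 of 6 single libraries left out, among them both ilea of each genotype. The knockout value was -0.97 without the colon of mouse 1 (adjusted p = 0.00162) and 0.00 without that of mouse 2.

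Cytochrome P450 enzymes of families 2 and 3, which oxidize drugs and lipids, had members on both sides. Of 22 tested 6 were higher in knockout ileum and 10 in colon, with a median of -0.78 (-1.38 in WTIEC). The median moved with the alternative and the members tested, at -0.42 without the ileum of mouse 1 (26 tested), -1.45 without that of mouse 2 (27 tested) and 0.54 with no filter (53 tested). With the colon of mouse 2 left out, 8 were ileal and 9 colonic. Cyp2c55 had 6.79 and 14.6 CPM in ileum and 781 and 1145 in colon (-6.50, SE 0.39), and Cyp2d34 1.58 and 0.991 in ileum and 216 and 169 in colon (-7.21). Cyp3a11 was ileal at 9.85 and 6.61 against 0.114 and 0.141 CPM (5.92), and Cyp2u1 at 64.5 and 56.1 against 3.20 and 1.32 (4.77). Each of these 4 separated the regions in every knockout library. Cyp2j6 (1.11) and Cyp3a13 (0.94) were ileal by less. Cyp3a13 was at 0.50 without the ileum of mouse 1 (adjusted p = 0.0422), and its call was lost without the colon of mouse 1 (0.84, adjusted p = 0.0672).

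Antigen presentation by MHC class II was ileal. Of 8 tested genes 7 were higher in knockout ileum and none in colon, with a median of 4.59 (2.98 in WTIEC). With both DESeq2 fits, upper-quartile scaling, no filter or protein-coding genes alone, 1 member passed as colonic. The same count was found with the replicate block, in all 8 libraries or in the 4 knockout libraries. Cd74, the invariant chain, had 795 and 225 CPM in ileum and 6.98 and 15.2 in colon (5.51, SE 0.72, adjusted p = 0.000591). H2-Ab1 had 336 and 87.6 CPM in ileum and 6.75 and 8.95 in colon (4.75), and H2-Aa 327 and 77.1 in ileum and 2.63 and 4.19 in colon (5.87). The transactivator gene Ciita had 43.9 and 15.1 CPM in ileum and 1.49 and 1.79 in colon (4.16). Ileum was higher in each mouse, and within ileum mouse 1 was well above mouse 2, with a median log2 ratio of 1.79 over the list against 0.01 over all genes. Leaving out the ileum of mouse 1 or 2 gave list medians of 3.36 and 5.23, and Ctss, a protease that trims the invariant chain (-0.54, adjusted p = 0.0646), passed as colonic in the former case and with the replicate block (adjusted p = 0.00867). WTIEC colon had 81.8 and 88.7 CPM of Cd74 and WTIEC ileum 980 and 425, and the interaction was 2.47 (adjusted p = 1). T cell and macrophage markers, at the sums given above, were also higher in knockout ileum, and their part in the class II values was not tested.

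Among genes that did not pass the interaction, 4 are given here, chosen by their values and not by rank, and genes with a smaller p than some of them, such as Bhlha15, Rgs17, Rasa4 and Odf2l, are not described. Gadd45g, a stress-response gene, had 27.5 and 24.2 CPM in knockout ileum and 8.47 and 8.90 in knockout colon, against 26.8 and 31.2 in ileum and 27.4 and 26.7 in colon of WTIEC (interaction 1.48, adjusted p = 0.183). Fbxo32, an adaptor of a ubiquitin ligase, had 10.1 and 8.92 CPM in ileum and 83.0 and 96.1 in colon, against 17.5 and 12.9 in ileum and 49.3 and 41.0 in colon (interaction -1.67, adjusted p = 0.37). Reg4, a secreted lectin, had 659 and 1324 CPM in ileum and 202 and 162 in colon, against 629 and 777 in ileum and 545 and 649 in colon (interaction 2.21, adjusted p = 0.703). The first and last were lower in knockout colon than in any other group, Fbxo32 was higher there, and none of the 3 passed. Pla2g4c, a phospholipase, had 5469 and 6539 CPM in knockout ileum and 2.75 and 30.7 in knockout colon (8.48, adjusted p = 0.000407, or 7.59 and 11.08 without the colon of mouse 1 and 2), against 251 and 329 in WTIEC colon (interaction 3.71, adjusted p = 0.946). Both knockout colons were low there, mouse 1 by more.

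**Figure D5:**
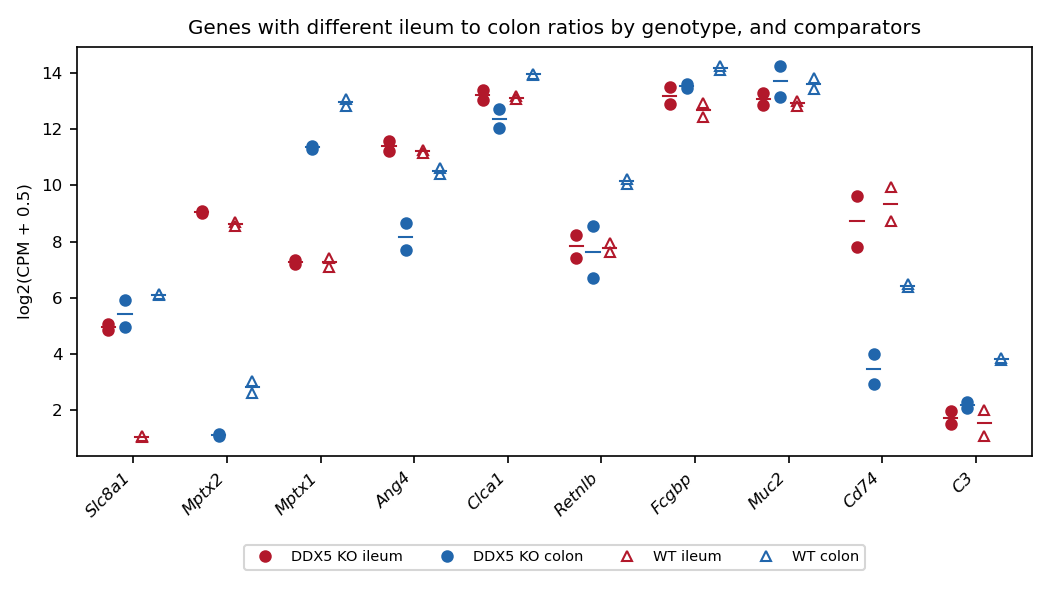
Level in each library, as log2 of CPM plus 0.5, of the 2 genes that passed the interaction and of 8 mucus, immune and complement genes that did not. Knockout ileum is at 28.5 and 32.9 CPM of Slc8a1 and WTIEC ileum at 1.53 and 1.58.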

How the data were processed

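The authors deposited 1 table per tissue with raw counts from featureCounts over exons of STAR 2.6.1a alignments to mm10, the unit used for every test here. The deposited normalized signal, counts over a DESeq2 1.18.1 size factor, served only to match mouse numbers: for 37 of 37 DDX genes it equalled the study's values by mouse within a relative 0.0001, which pairs ileum and colon of 4 mice. Other deposited columns are gene length, used for no test, and the authors' log2 fold change, standard error, Wald statistic, p and adjusted p between genotypes, which were not used. No per-sample column was left out. Tables of 38649 (ileum) and 28349 (colon) genes were joined by identifier, with 26820 genes in both, 11829 in ileum only and 1529 in colon only, and a gene missing from 1 table counted 0 there. Gm10800, Gm10801 and Gm21738 were removed, after which the knockout libraries held 11741626 and 9316098 counts in ileum and 16882987 and 19386558 in colon.

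Python 3.11.15 (pandas 2.3.3, numpy 2.4.6, scipy 1.17.1, matplotlib 3.10.9) and R 4.3.3 with edgeR 4.0.16, DESeq2 1.42.0 and limma 3.58.1 were used. Genes were kept by filterByExpr with a minimum count of 10, scaled by TMM, and fitted by edgeR's quasi-likelihood method with 4 group means over 8 libraries, with 4 residual degrees of freedom. Contrasts were ileum against colon in each genotype, their difference (the interaction) and their mean, tested across all 16283 genes with Benjamini-Hochberg adjustment. The code was tested on simulated data. Deviations of a mouse's 2 libraries from their groups correlated at 0.118 in the knockout and 0.146 in WTIEC, and a block for mouse was an alternative. Alternatives were DESeq2, RLE and upper-quartile scaling, other filters, protein-coding genes, genes in both tables, each genotype alone, repeat-like genes kept, and each library left out. A left-out library leaves a group with 1 library, assumed to vary like the others. Single libraries left out of the list counts, and either knockout colon left out at genes outside the naming rule, were added after seeing the data. Members and lists were chosen with earlier results of these data known.

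Named genes were Ddx5, the Fabp family and C3, the 10 largest differences in each direction (adjusted p below 0.05, mean of 10 CPM in the higher region, no overlap), up to 4 most abundant called members of each regional list with members called against their list, and genes that passed the interaction. Genes outside this rule, chosen after their values were seen, were Apoc3, Axin2, B3gnt7, Bhlha15, Car4, Cdh1, Cdh17, Cdx1, Ciita, Ctss, Dbp, Dclk1, Ddx3x, Ddx17, Ddx18, Ddx39, Ddx58, Fbxo32, Fcgbp, Fer1l6, Fgf15, Gadd45g, Gata4, Gata5, Gip, Guca2a, Hnf4g, Hox genes other than Hoxb13, Hoxb9, Hoxa13 and Hoxd13, Krt20, Lct, Lgr5, Lrig1, Lyz1, Mki67, Mmp7, Mttp, Muc2, Npc1l1, Nr1h4, Nts, Odf2l, Olfm4, Osr2, Pla2g4c, Pou2f3, Prkg2, Rasa4, Reg3b, Reg3g, Reg4, Retnlb, Rgs17, Scnn1a, Scnn1g, Sct, Slc46a1, Slc51b, Trpm5, Vil1, the Gm genes of the ileum of mouse 1, and marker genes of other cells named as the most abundant or at 0. Positions are from GENCODE vM21 on GRCm38, where the deposited identifier and its version matched, and promoters from RefSeq, for 10868 of 16278 tested symbols.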

Additional observations from a re-analysis of the deposited data

Results flagged for a closer look

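Slc8a1 and Mptx2 stand here because the test of the difference between genotypes passed. On the log2 scale, ileum over colon was larger in the knockout by 4.908 at Slc8a1 (adjusted p = 0.0351 by the quasi-likelihood interaction test of edgeR, Benjamini-Hochberg adjusted) and by 2.411 at Mptx2 (adjusted p = 0.0476).

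Among genes described above, Clca1 and Cdx2 stand here because both knockout mice pointed 1 way and both WTIEC mice the other. Some genes that are not described met this reason too, with a smaller unadjusted p in the interaction test, and are not listed. At Clca1 the mean log2 ratio was 0.8437 in the knockout mice and -0.8339 in the WTIEC mice, and at Cdx2 0.6751 and -0.0962. Most of the knockout mean at Cdx2 came from mouse 1, and in mouse 2 ileum was only just above colon. The test of the difference did not pass at either gene (adjusted p = 0.928 and 1).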

How the results depend on the processing

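Ileal and colonic counts in the knockout stayed within 1.5 times of those given under every alternative but the 4 knockout libraries alone, which called 1815 colonic genes. The replicate block gave 3165 and 2917. In WTIEC, libraries left out in turn gave 1538 to 3251 ileal and 1601 to 3026 colonic genes, and the 4 WTIEC libraries alone 3484 and 3353, or 3755 and 3680 with the block. The interaction moved most: genes more ileal in the knockout were 15 with DESeq2, 30 with DESeq2 and the block, 1 with a mean of at least 10 counts, 147 with no filter, 0 among protein-coding genes, 1 with the replicate block, 0 to 29 with libraries left out, and 366 protein-coding genes by unadjusted p and a log2 fold change of 0.5. Genes more colonic in the knockout were 2 with DESeq2, 6 with DESeq2 and the block, 54 with no filter, 0 to 3 with libraries left out, and 146 by that unadjusted rule. The WTIEC genes that passed in the knockout were 87.1% with DESeq2, 87.3% with DESeq2 and the block, 83.7% with no filter, 87.8% among protein-coding genes and 73.9% to 91.7% with libraries left out. The knockout genes that passed in WTIEC were 86.9% with DESeq2, 86.2% with DESeq2 and the block, 87.1% with a mean of at least 10 counts, 80.5% with no filter, 87.5% among protein-coding genes, 86.2% with the replicate block and 71.0% to 90.9% with libraries left out. The median signed change ran from 0.00462 to 0.274. No called result reversed. Among genes named by the rule the block ended the calls of Clca1, Cdx2 and, in the interaction, Mptx2, and changed no other. Over 114 named genes and 20 alternatives, 2198 of 2273 values stayed on their side of the threshold, 73 lost the call (at 14 genes) and 2 gained it, both at Slc8a1. The causes of these changes were not tested. List counts with single libraries left out, and genes outside the rule without either colon, were added after seeing the data. Depth may limit calls at genes of few counts, which was not tested.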

Other observations

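Transcripts of tuft cells, the chemosensory cells of the epithelium, were higher in knockout ileum. All 11 tested tuft cell genes were higher in ileum, with a median log2 fold change of 2.77 (2.56 in WTIEC). Dclk1, a kinase that marks them, had 80.2 and 106 CPM in ileum and 8.64 and 22.6 in colon (2.57), the cation channel Trpm5 72.9 and 90.4 in ileum and 8.01 and 15.4 in colon (2.79), and the lineage factor Pou2f3 7.88 and 12.3 in ileum and 0.400 and 1.177 in colon (3.62). The colon of mouse 1 was the lowest library at each, and the summed level was 373 and 431 CPM in ileum and 38.0 and 79.2 in colon. Of 15 tested stem cell genes 4 were ileal and 3 colonic, with a median of 0.17 (0.04 in WTIEC), or -0.02 without the ileum of mouse 2. Olfm4, which marks stem cells of the small intestine in mice, had 605 and 810 CPM in ileum and 1.32 and 0.659 in colon (9.51, SE 0.31, adjusted p = 9.41e-07). Lgr5, the Wnt-coupled receptor of stem cells, had 14.3 and 17.7 CPM in ileum and 5.95 and 9.61 in colon (1.03), and the Wnt target Axin2 108 and 96.8 in ileum and 39.9 and 40.0 in colon (1.36). Lrig1, which restrains growth factor receptors, was colonic at 227 and 206 against 107 and 122 CPM (-0.92).

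Regional calls in housekeeping groups varied with the processing. Of 80 ribosomal protein genes none was ileal and 6 colonic, with a median of -0.25, and the colonic count was 22 with the replicate block, 27 with upper-quartile scaling, 0 without the colon of mouse 1 and 19 without the ileum of mouse 1. Of 16 cell cycle genes 2 were ileal, with a median of 0.34, and the ileal count was 7 with the replicate block and 0 to 6 with single knockout libraries left out. Mki67, a marker of cycling cells, had 247 and 376 CPM in ileum and 195 and 282 in colon (0.39, adjusted p = 0.222, or 0.0333 with the block), higher in mouse 2 in both regions. Of 35 DEAD-box helicase genes, relatives of Ddx5, 4 were ileal and 6 colonic, with a median of -0.07, and 2 and 11 with upper-quartile scaling or 2 and 2 without the colon of mouse 1. The 4 ileal ones were Ddx18, Ddx39, Ddx3x and Ddx58, and the 6 colonic ones are not named here. With the 4 knockout libraries fitted alone, 1 helicase gene was ileal and none colonic.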
